A study of Mus musculus with 36 samples.

Results

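MicroRNA genes were examined as a class of short loci in chromatin carrying tagged histone H4. The mm10 gene table of RefSeq (assembly GRCm38.p6) lists 1136 genes of biotype miRNA on the 19 autosomes, of 47042 autosomal genes in all. Each was taken from the start to the end of its annotated hairpin with 1 kb on both sides, and the HA regions overlapping that window by at least 1 bp were counted. A locus with such a region is called marked. The design of the series was to map where wild-type H4 and its lysine 91 mutants are incorporated in mouse embryonic stem cells and in neural cells derived from them, and the series also holds stem cell lines labelled HiraKO, H33DKO and DAXXKO. Of its 36 samples, 4 entered here, all of the line labelled parental: mouse embryonic stem cells stably expressing a PiggyBAC empty vector, H4WT with 3 HA tags, H4K91R with 3 HA tags or H4K91Q with 3 HA tags, each pulled down with anti-HA beads. H4K91R replaces lysine 91 of the histone by arginine, and H4K91Q replaces it by glutamine. The sources used here do not give the transgene's promoter, its level beside endogenous H4 or the number of clones behind each line. With 1 library per group there are no replicates, no test was possible, and every interval below is an exact 95% interval for counting error only. The lists give no expression, so the stem cell identity of the lines was not checked.

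MicroRNAs are short RNAs cut from a hairpin in a longer primary transcript. Bases 2 to 8 of the mature miRNA, the seed, pair with target mRNAs, so miRNAs with a common seed act on overlapping targets. Many hairpins lie in introns of protein-coding genes and are made from the host's transcript, others lie in long noncoding host transcripts, and clustered hairpins are cut from 1 transcript. A hairpin therefore often lies far from the start site that drives it. In mouse embryonic stem cells the Mir290 to Mir295 cluster and the Mir302 cluster supply miRNAs that sustain rapid division and pluripotency. Some members of the Mir17 and Mir106b clusters carry a closely related seed, while others, such as Mir92-1 and Mir25, have a different one. The miRNAs let-7, miR-124 and miR-9 belong to differentiated and neural cells.

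The mature sequences below are those the results turn on, from RefSeq on GRCm38.p6, written 5′ to 3′ with the seed in capitals. The first set comes from stem cell and cell-cycle clusters, none of which had an HA region in any library.
miR-291a-3p: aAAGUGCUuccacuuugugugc
miR-294-3p: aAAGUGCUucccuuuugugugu
miR-302b-3p: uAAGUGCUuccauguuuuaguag
miR-302d-3p: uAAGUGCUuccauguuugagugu
miR-17-5p: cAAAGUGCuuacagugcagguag
miR-93-5p: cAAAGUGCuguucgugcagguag
miR-106b-5p: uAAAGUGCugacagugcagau

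The next set comes from neural loci with regions in both the H4WT and the H4K91R list. Mature miR-9-5p is the same from its 3 genes, of which Mir9-2 had no region, and miR-132-3p and miR-212-3p share a seed and a locus. Mature miR-219a-5p comes from Mir219a-2, which had both, and from Mir219a-1, which had an H4WT region alone. The 3 Mir124a genes had no entry in the sequence table.
miR-9-5p: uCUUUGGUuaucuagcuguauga
miR-137-3p: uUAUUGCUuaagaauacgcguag
miR-132-3p: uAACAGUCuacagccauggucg
miR-212-3p: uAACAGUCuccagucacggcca
miR-219a-5p: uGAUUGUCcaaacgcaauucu

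Families spread over several chromosomes come next: let-7 with H4WT regions at some of its genes, miR-26 with an H4WT region at all 3 of its genes, and miR-103 with miR-107, which had none.
let-7i-5p: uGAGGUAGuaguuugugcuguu
let-7b-5p: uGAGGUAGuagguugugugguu
let-7g-5p: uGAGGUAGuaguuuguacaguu
miR-26a-5p: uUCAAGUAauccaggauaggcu
miR-26b-5p: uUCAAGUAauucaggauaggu
miR-103-3p: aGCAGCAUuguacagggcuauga
miR-107-3p: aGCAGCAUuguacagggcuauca

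The last set comes from loci with regions of all 3 tagged histones. miR-127-3p, miR-434-3p and miR-136-5p lie opposite the imprinted gene Rtl1, miR-5125 lies in Srrm2 and miR-7217-5p lies outside coding genes.
miR-127-3p: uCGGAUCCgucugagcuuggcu
miR-434-3p: uUUGAACCaucacucgacuccu
miR-136-5p: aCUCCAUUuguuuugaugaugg
miR-5125: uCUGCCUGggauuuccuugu
miR-7217-5p: aACUUGUAucuugugagacagaagg

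Wild-type H4 regions lay at 368 of the 1136 miRNA loci, or 32.4% (29.7 to 35.2). H4K91R regions lay at 228, or 20.1% (17.8 to 22.5), and H4K91Q regions at 15, or 1.32% (0.741 to 2.17). The empty-vector list, the background of the pulldown, had regions at 18, or 1.58% (0.942 to 2.49). The autosomes were tiled with 1174038 windows of 2080 bp, the length of a median locus of 80 bp with its flanks. Of these windows 5.19% held an H4WT region, 3.84% an H4K91R region, 1.06% an H4K91Q region and 0.267% an empty-vector region. The share of miRNA loci was thus 6.24 times (5.72 to 6.78) the genome share for H4WT, 5.22 times (4.62 to 5.86) for H4K91R and 1.25 times (0.700 to 2.05) for H4K91Q. The H4K91Q interval includes a ratio of 1. The empty-vector ratio was 5.93 (3.52 to 9.33), which overlaps that of H4WT and of H4K91R, on 18 loci. Tagged regions that overlapped an empty-vector region had been left out of the tagged counts, so those regions do not enter them.

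The tagged lists differ in length, from 69158 deposited peaks for H4WT and 49155 for H4K91R to 14314 for H4K91Q, and longer lists touch more loci. With each list cut to its 14314 peaks of highest −log10 q, H4WT regions lay at 144 loci (12.7%, against 1.36% of windows) and H4K91R regions at 81 (7.13%, against 1.29%), beside the 15 of H4K91Q. At equal length the ratio of loci to windows was 9.32 (7.94 to 10.8) for H4WT, 5.54 (4.43 to 6.83) for H4K91R and 1.25 for H4K91Q. The H4WT and H4K91R intervals did not overlap each other, and both lay above that of H4K91Q. They cover the counting of loci only, with neighbouring loci counted apart. With 1 library per group they are no test of a difference between the histones. The sequencing depth of the 4 libraries is unknown, and its part in these counts was not tested.

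The loci were divided by their place among protein-coding genes. A hairpin within 1 kb of either end of a coding gene was called near a gene end (144 loci, 12.7%), another hairpin within a coding gene was called inside (673, 59.2%), and the rest were called outside coding genes (319, 28.1%), where many sit in long noncoding transcripts. Of the genome windows, 3.18%, 38.5% and 58.3% fell in these classes, so miRNA loci lay closer to coding genes than the genome at large.

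Near gene ends 95 of 144 loci (66.0%) had an H4WT region, against 35.4% of windows near gene ends. H4K91R regions lay at 64 (44.4%, against 21.3%), H4K91Q regions at 2 (1.39%, against 0.780%) and empty-vector regions at none, against 0.912% of windows. Inside coding genes H4WT regions lay at 211 loci (31.4%, against 6.77%), H4K91R at 126 (18.7%, against 4.36%), H4K91Q at 11 (1.63%, against 0.615%) and empty-vector regions at 14 (2.08%, against 0.404%). Outside coding genes H4WT regions lay at 62 (19.4%, against 2.50%), H4K91R at 38 (11.9%, against 2.55%), H4K91Q at 2 (0.627%, against 1.37%) and empty-vector regions at 4 (1.25%, against 0.142%). The share fell from gene ends to the interior to the outside for both H4WT and H4K91R, while the ratio to like-placed windows was lowest near gene ends, at 1.86 (1.63 to 2.08) for H4WT and 2.08 (1.69 to 2.48) for H4K91R. It was 4.63 and 4.29 inside coding genes, and 7.77 (6.09 to 9.68) and 4.67 (3.36 to 6.27) outside them. For H4K91Q it was 1.78 (0.216 to 6.31) near gene ends, 2.66 (1.33 to 4.72) inside and 0.459 (0.0557 to 1.64) outside. These rest on 2, 11 and 2 loci, and the 11 inside make 7 clusters of neighbouring loci, which the interval counts apart. With the windows weighted to the same mix of places as the loci, the expected shares were 9.20% for H4WT, 6.01% for H4K91R, 0.847% for H4K91Q and 0.395% for the empty vector. The observed shares were 3.52 (3.23 to 3.83), 3.34 (2.96 to 3.75), 1.56 (0.875 to 2.56) and 4.02 (2.39 to 6.32) times these. The empty-vector interval thus held those of H4WT and H4K91R, and the H4K91Q interval included a ratio of 1.

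**Figure D1:**
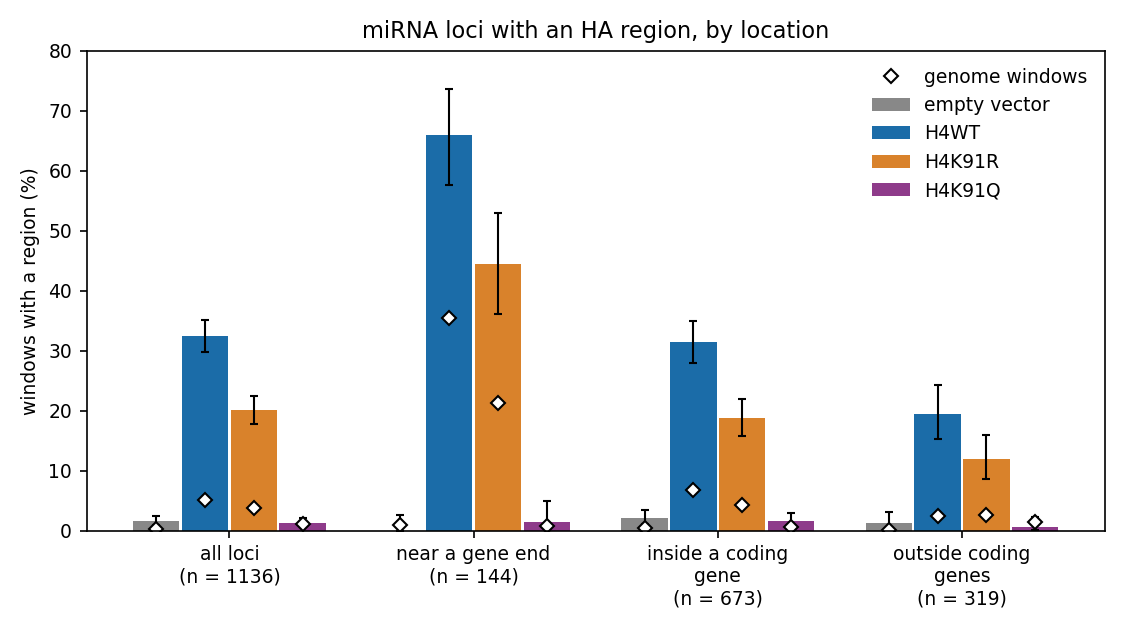
Share of miRNA loci with an HA region (bars, percent, with exact 95% intervals for counting error) for the 4 libraries, over all loci and in the 3 location classes. Open diamonds give the share of genome windows of 2080 bp in the same class; H4WT and H4K91R bars stand above their diamonds in every class, and H4K91Q bars lie at 1.63% or less.

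The regions sat on the hairpins themselves at many loci. Of the loci with a region, a region covered part of the annotated hairpin at 202 for H4WT (54.9%) and 90 for H4K91R (39.5%). It did so at 9 for H4K91Q (60.0%) and 8 for the empty vector (44.4%). The empty-vector share thus lay between those of H4K91R and H4WT. The share of marked genome windows with a region over their middle 80 bp was not measured, so these shares have no genome value beside them. Around the 919 hairpins whose strand is known from the sequence table, H4WT coverage was highest 100 bp downstream of the hairpin centre, where 17.4% of loci were covered. It averaged 4.53% at 5 to 10 kb upstream and 4.41% at 5 to 10 kb downstream. H4K91R coverage peaked at the same place at 7.73%, against 2.25% and 2.38% at those distances. H4K91Q coverage over all loci reached at most 0.871%, at 4900 bp upstream. Inside coding genes it was highest at 1.16%, 500 bp downstream, and averaged 0.694% and 0.926% in the 1 kb up- and downstream, beside 0.355% and 0.339% at 5 to 10 kb. Outside coding genes, where no coding gene end lies near, H4WT coverage rose from 3.61% at 5 to 10 kb upstream to 11.3% at the hairpin.

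**Figure D2:**
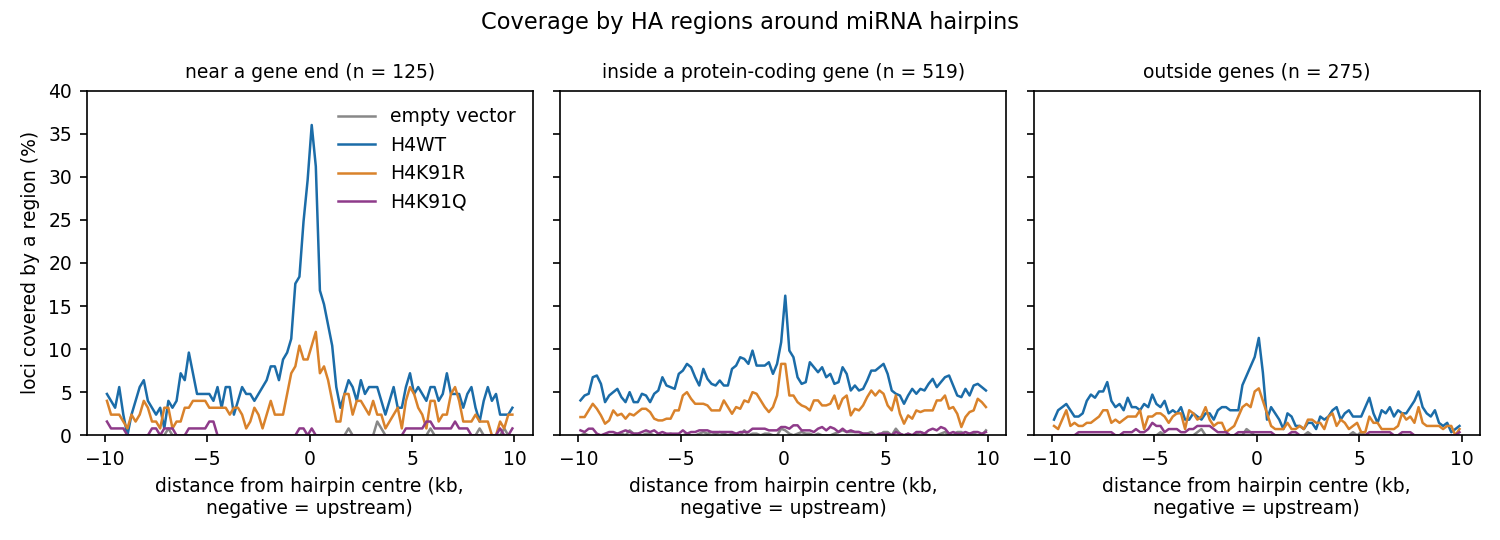
Percent of miRNA loci covered by a region (y axis) in 200 bp steps up to 10 kb on both sides of the hairpin centre, oriented by the strand of the miRNA, for the 3 location classes and 4 libraries. H4WT and H4K91R have a narrow maximum within 300 bp of the hairpin in each class, highest near gene ends, and H4K91Q stays at 1.60% or less.

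In the whole lists the median authors' fold, the enrichment over input at the summit, was 5.68 for H4WT, and regions at miRNA loci had a median of 6.25, above 62.4% of the H4WT list. For H4K91R the medians were 5.28 over the list and 5.32 at miRNA loci, and for H4K91Q 5.13 and 4.56. The median width of regions at miRNA loci was 315 bp for H4WT and 282 bp for H4K91R, beside 265 and 270 bp over the lists. Of the H4WT loci, 210 had 1 region, 103 had 2 and 55 had 3 or more. The fold is the authors' own value and was used within a list only.

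Neighbouring hairpins share regions, so loci are not independent. When loci with overlapping windows were merged, the 1136 loci made 934 clusters, of which 863 held 1 locus. H4WT regions lay at 35.2% of clusters, H4K91R at 21.0% and H4K91Q at 1.18%. Other small RNA genes were counted the same way. H4WT regions lay at 9.49% of 1286 snoRNA genes, 4.94% of 931 snRNA genes and 18.2% of 391 tRNA genes, and H4K91R regions at 4.51%, 2.36% and 7.42%. These classes lie elsewhere, with 317 of the tRNA genes and 823 of the snoRNA genes outside coding genes. Within places the H4WT shares of tRNA genes were 57.4% (42.2 to 71.7) near gene ends, 18.5% (6.30 to 38.1) inside and 12.3% (8.90 to 16.4) outside coding genes, and each interval overlapped that of miRNA loci in the same place. In the same order snoRNA genes had 32.9% (22.7 to 44.4), 11.2% (8.22 to 14.8) and 6.44% (4.86 to 8.34), each interval below that of miRNA loci. The snRNA genes had 40.6% (23.7 to 59.4), 5.00% (2.88 to 7.99) and 2.94% (1.72 to 4.66), below miRNA loci inside and outside. For H4K91R, tRNA genes outside coding genes had 3.47% (1.74 to 6.12), below miRNA loci, and their intervals in the other places overlapped.

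The H4WT and H4K91R lists shared loci. H4WT alone marked 165 loci, H4WT with H4K91R 190, H4K91R alone 24, and all 3 tagged histones 13. Of the 368 H4WT loci 203 (55.2%, 49.9 to 60.3) also had an H4K91R region, while 43.9% of the genome windows with an H4WT region did. Of the 228 H4K91R loci 203 (89.0%, 84.2 to 92.8) also had H4WT, against 59.3% of windows. The windows in these comparisons were not matched by place. With lists of equal length, 48 of 144 H4WT loci (33.3%, against 34.2% of windows) had H4K91R, which is no longer above windows, and 48 of 81 H4K91R loci (59.3%, against 36.1%) had H4WT. Among H4WT loci ordered by fold, H4K91R was present at 76.4% of the highest 3rd, 55.3% of the middle and 33.6% of the lowest. The 1 kb limit decided some of these calls. Of the 165 loci with H4WT alone, 44 (26.7%) had an H4K91R region within 2 kb, and of the 24 with H4K91R alone 9 (37.5%) had an H4WT region within 2 kb.

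The stem cell clusters had no region of any library within 1 kb. This held for the 9 genes of the Mir290 to Mir295 cluster (chr7:3218626-3220841), the 5 of the Mir302 to Mir367 cluster inside Larp7 (chr3:127545228-127545807), the 6 of the Mir17 to Mir92-1 cluster (chr14:115043671-115044506) and the 3 of the Mir106b cluster in Mcm7 (chr5:138165321-138165818). These 23 loci form 4 clusters. All-locus shares were 32.4% for H4WT and 20.1% for H4K91R, but 4 clusters are too few to call the absence particular to them. The nearest H4WT region lay 7645 to 9791 bp from the Mir290 hairpins, 7742 to 8248 bp from the Mir302 hairpins and 1307 to 2677 bp from the Mir17 and Mir106b hairpins. The nearest H4K91R region lay 75983 bp or farther from Mir290 genes and 7725 to 8231 bp from Mir302 genes. It lay 2183 to 2939 bp from the Mir17 to Mir92-1 hairpins and 28573 to 28987 bp from the Mir106b cluster. The windows were centred on hairpins, and with 5 kb on both sides 9 of the 23 loci had an H4WT region and 6 an H4K91R region. By these distances the H4WT loci were those of the Mir17 and Mir106b clusters, and the H4K91R loci those of the Mir17 cluster alone.

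Neural miRNA genes were marked at 14 of 30 for H4WT (46.7%), 10 of 30 for H4K91R (33.3%) and none for H4K91Q or the empty vector. The shares over all miRNA loci were 32.4% and 20.1% for H4WT and H4K91R. Mir124a genes supply miR-124, an abundant miRNA of neurons, from 3 chromosomes. Mir124a-1 had an H4WT region of fold 6.47 and an H4K91R region of fold 4.47. Mir124a-2 had folds of 4.10 and 4.76 in these lists, and Mir124a-3 had 9.13 and 6.86. Each of the 3 genes was therefore in both lists, although the nearest H4K91R regions lay 559, 929 and 108 bp from the hairpins and not on them.

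Mir9-3, a source of the neural progenitor miRNA miR-9 (chr7:79505264-79505353), had an H4WT region of fold 14.3 over the hairpin and an H4K91R region of fold 6.55 lying 27 bp away. Mir9-1 had folds of 5.68 and 6.14. The third copy, Mir9-2, had neither, with the nearest H4WT region at 7257 bp, so copies encoding the same mature sequence differed. Mir9-3 lies in the noncoding host gene Mir9-3hg. The listed start site 5238 bp upstream was also under an H4WT region of fold 9.73 and had its nearest H4K91R region 4733 bp away. Another listed start site, downstream of the hairpin, was under an H4WT region of fold 4.58. The upstream promoter is shown because that start and the hairpin both carried H4WT regions. It is written 5′ to 3′ on the plus strand (chr7:79499776-79500075, GRCm38.p6), from 250 bases before to 50 after the start, with each CG in capitals.
Mir9-3hg promoter: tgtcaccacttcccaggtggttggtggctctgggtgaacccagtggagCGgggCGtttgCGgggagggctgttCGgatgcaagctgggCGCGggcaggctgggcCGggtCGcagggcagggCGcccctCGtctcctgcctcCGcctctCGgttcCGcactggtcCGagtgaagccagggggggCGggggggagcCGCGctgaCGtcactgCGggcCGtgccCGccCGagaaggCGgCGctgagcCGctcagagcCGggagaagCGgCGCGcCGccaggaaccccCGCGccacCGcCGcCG

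The letters CG, which read the same on both strands, occur 35 times in these 300 bases, and 75.0% of the bases are G or C. Of the 32851 promoters of the table used, 94.6% hold at least 1 CG, the median holds 7 and 6.95% hold as many as this one.

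Other neural loci were marked too. Mir219a-2 at the end of Cercam, a gene of an oligodendrocyte miRNA (chr2:29845631-29845727), had the highest H4WT fold of the list at 16.3 and an H4K91R fold of 3.76. Mir132 and Mir212, whose products respond to neuronal activity, shared an H4WT region of fold 9.13 and an H4K91R region of fold 4.02. Mir137 had 6.09 and 5.18, and Mir338, inside Aatk, had 8.77 and 5.66. Mir219a-1 (6.46), Mir129-1 (7.04), Mir129-2 (8.96) and Mir138-2 (4.73) had H4WT regions alone. The 16 neural loci with no H4WT region included both Mir128 genes, both Mir218 genes, both Mir125b genes, Mir134 and Mir153. The H4K91R count of 10 fell to 6 with flanks of 500 bp and to 2 on the hairpin itself.

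The let-7 genes, which restrain growth in differentiated cells, had H4WT regions at 4 of 10, beside 32.4% of all miRNA loci, and no H4K91R region. Mirlet7i had a fold of 6.06, Mirlet7g in Wdr82 had 4.81, and Mirlet7b with Mirlet7c-2 shared a region of fold 4.56. The Mir200 family, which maintains epithelial identity, had H4WT regions at 4 of 5, in 2 clusters, and no H4K91R region, with a shared fold of 6.82 at Mir200c and Mir141 and of 5.14 at Mir200a and Mir200b. The H4WT loci of these families thus lacked H4K91R in 8 of 8 cases, at 5 separate places, beside 165 of 368 over all miRNA loci. Their H4WT folds all lay below the highest 3rd of H4WT loci, which began at 7.96. H4K91R was at 55.3% of the middle 3rd and 33.6% of the lowest 3rd, so all H4WT loci are an unlike comparison. Whether the absence of H4K91R differs from that at loci of like fold was not tested.

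Counts for other tissues and families stand beside an H4WT share of 32.4% and an H4K91R share of 20.1% over all miRNA loci. Muscle genes had H4WT regions at 3 of 10: Mir1a-1 (8.63), Mir208a in the cardiac myosin gene Myh6 (8.62) and Mir499 in Myh7b (4.95), of which Mir208a also had H4K91R (4.42). Hox cluster miRNA genes had them at 3 of 6, with folds of 11.3 for Mir615 in Hoxc5, 9.19 for Mir196b and 4.42 for Mir10b, and H4K91R at the first pair (4.82 and 6.77). Blood and other tissue genes had H4WT regions at 6 of 21, among them the islet gene Mir375 (10.7, with H4K91R at 5.70) and the blood gene Mir142 (7.95, with 7.05). The p53-responsive genes Mir34b and Mir34c shared an H4WT region of 6.86 and an H4K91R region of 5.99, while Mir34a had none. The Mir15, Mir29 and Mir30 families had H4WT regions at 2 of 16, the neighbours Mir195a and Mir497 (4.71).

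**Figure D3:**
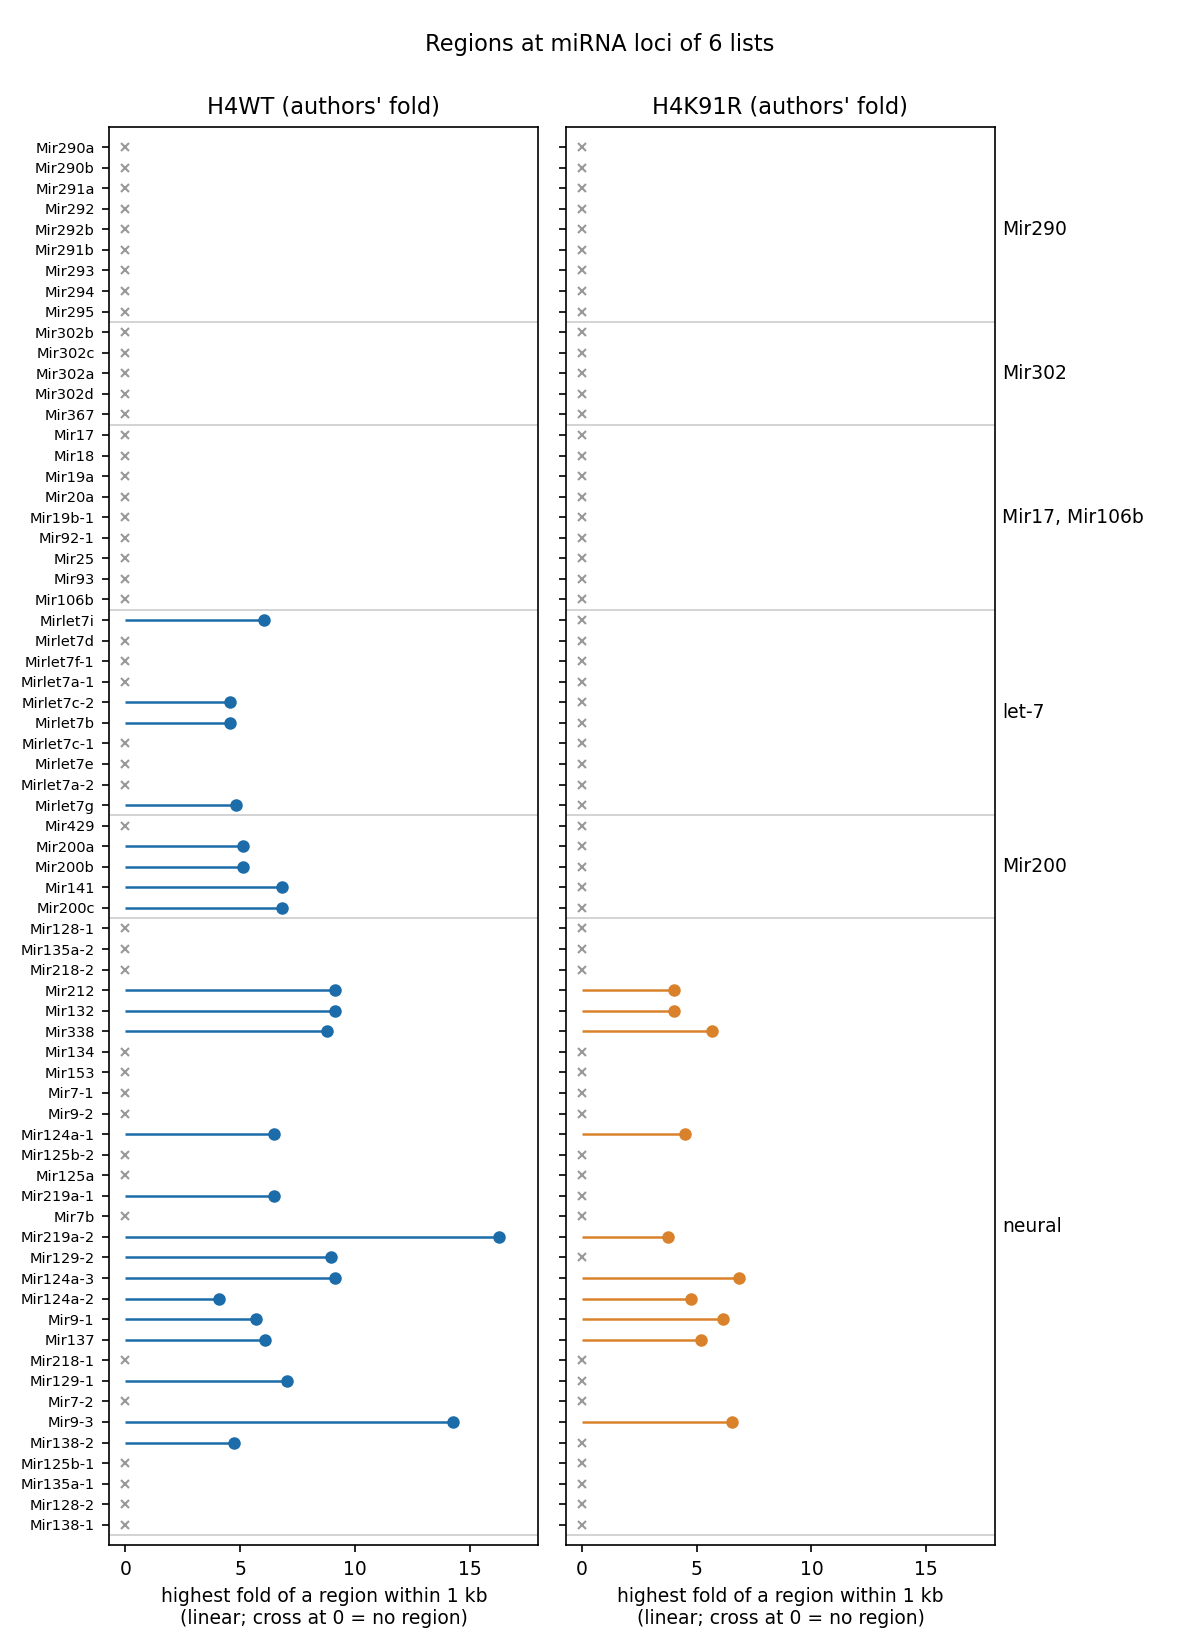
Authors' fold of the highest region within 1 kb of each miRNA gene of 6 lists, in the H4WT list (left) and the H4K91R list (right), with a cross at 0 where the list has no region. The fold scales of the lists are not comparable with each other; the Mir290, Mir302, Mir17 and Mir106b genes are crosses throughout, the 3 Mir124a genes have points in both panels, and let-7 and Mir200 genes have points on the left alone.

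Imprinted clusters differed from each other. The Sfmbt2 cluster, a rodent array of near-identical miRNA copies in an intron of Sfmbt2, had no region of any library at its 72 loci, and the nearest H4WT region lay 91381 bp away. The handling of reads with several matches is not stated, so absence over such copies is uncertain. The Dlk1 to Dio3 interval on chromosome 12, where miRNA genes are expressed from the maternal copy, has 61 loci. H4WT regions lay at 15 of these (24.6%), H4K91R regions at 19 (31.1%) and H4K91Q regions at 5 (8.20%), and empty-vector regions at none. Over all loci the shares were 32.4%, 20.1% and 1.32%, so the H4WT share was below that of all loci and the other 2 above it. The 61 loci form 15 clusters, of which 5 had H4WT, 4 had H4K91R and 1 had H4K91Q, so by cluster H4K91R did not lead H4WT.

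Most of these regions lay in Rtl1, a retrotransposon-derived gene of the paternal copy. Of the 15 miRNA loci inside Rtl1, 12 had H4WT, 14 had H4K91R and 5 had H4K91Q, on 8, 10 and 3 regions. Of the other 46 loci of the interval, 3, 5 and 0 did. Mir431 had an H4WT fold of 8.63 and an H4K91R fold of 9.24, and Mir433 had 7.19 and 9.24. Mir127 had 5.64, 8.45 and 4.30 in the H4WT, H4K91R and H4K91Q lists. Mir136, whose RNA is antisense to Rtl1 (chr12:109595327-109595388), had 7.98, 11.4 and 6.11, as did Mir3071, which overlaps it. Mir434 and Mir432 had 7.98, 11.4 and 6.36. These 5 loci are 5 of the 15 with an H4K91Q region genome-wide and rest on 3 H4K91Q regions. Mir3070a and Mir3070b had H4K91R alone, but the nearest H4WT region lay 1736 and 1087 bp away. Farther along, Mir409, Mir412, Mir369 and Mir410 shared a single H4K91R region of fold 4.23, with H4WT 6048 bp or more away. Mir1247 near Dio3 had 11.4 and 5.59. With lists of equal length the interval had 2 H4WT loci, 9 H4K91R loci and 5 H4K91Q loci.

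**Figure D4:**
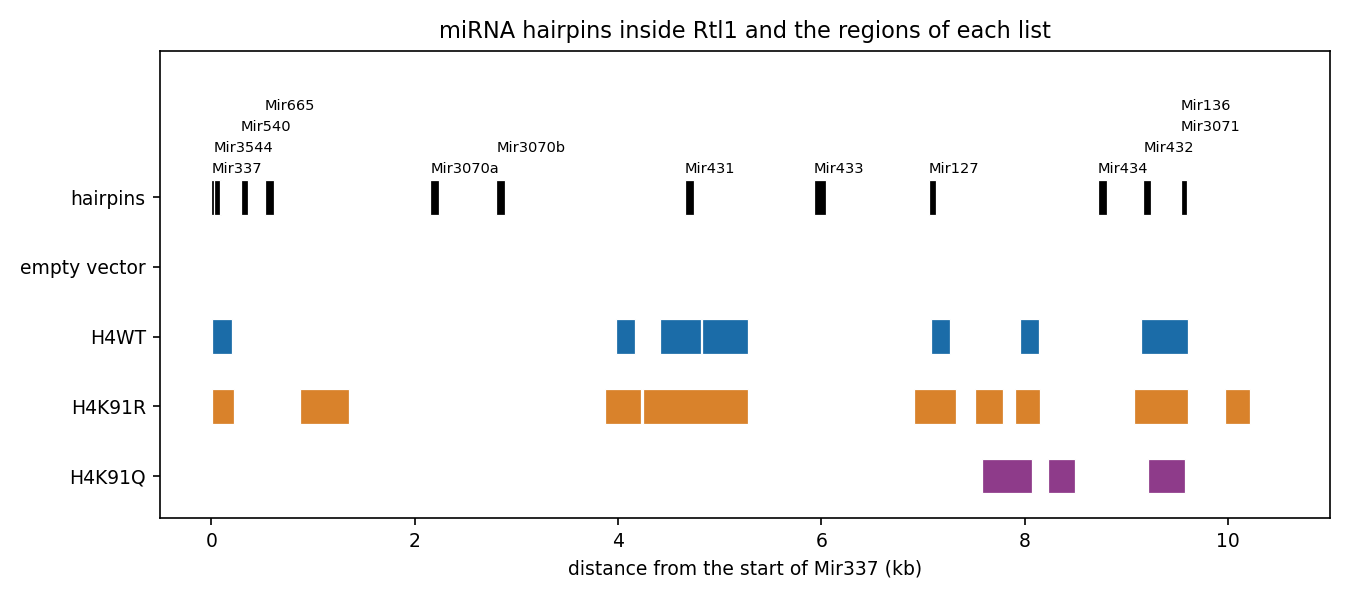
Hairpins of the miRNA genes inside Rtl1 from Mir337 to Mir136 (black) and the regions of each list below them, by distance in kb from the start of Mir337. H4WT and H4K91R regions recur along the stretch, the 3 H4K91Q regions lie from downstream of Mir127 to Mir136, the last of them over Mir432, Mir3071 and Mir136, and the empty vector has none.

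The loci of highest fold lay in all 3 kinds of place. Mir5620 in Clcn4, a chloride transporter gene, had the highest H4WT fold at 19.9, with 23.0 for H4K91R and 4.41 for H4K91Q. Mir5125 in Srrm2, which encodes a splicing protein (chr17:23823291-23823369), had the highest mutant folds, 39.8 for H4K91R and 24.6 for H4K91Q, beside 10.8 for H4WT, and its H4K91Q region ran for 11115 bp. Mir6935 in the actin gene Actg1 had 12.6, 25.2 and 7.56. Mir7217, outside coding genes (chr17:27355738-27355799), had 5.68 for H4WT, 23.0 for H4K91R and 6.87 for H4K91Q. Mir7677 in Itpr3 had 9.85, 17.0 and 6.30, Mir6546 in Fcgr3 had 13.1, 11.6 and 3.64, Mir8109 at Neto2 had 10.7, 11.3 and 4.11, and Mir6965 in Ccnf had 9.51, 10.8 and 4.72.

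Of the 15 loci with an H4K91Q region, 13 (86.7%, 59.5 to 98.3) also had H4WT, while 24.4% of genome windows with an H4K91Q region did. With lists of equal length 7 of the 15 (46.7%) did, against 8.75% of windows. In the lists at full length the exceptions were Mir7024, at Nelfa and Nsd2, and Mir3471-2. Mir7024 had an H4K91R fold of 5.22 and an H4K91Q fold of 4.17. Mir3471-2 had an H4K91Q fold of 4.56 alone, with an H4K91R region 1129 bp away. By place, 11 of the 15 lay inside coding genes, while 9344 of the 12419 genome windows with an H4K91Q region lay outside them. These windows were not matched by place. The 15 loci make 11 clusters, and the exact interval counts neighbours apart. Whether the sharing is particular to miRNA loci was not tested. The highest loci with H4WT alone were Mir7647 in Diablo (14.7), Mir709 in Rfx1 (14.2) and Mir6999 in Dgkz (11.1). The nearest H4K91R region lay 1017, 1116 and 4984 bp from them. Mir326 in Arrb1, chosen after its values were seen, had an H4K91R region of fold 6.91 with the nearest H4WT region 10847 bp away.

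Some seeds recur at several places in the genome. Of 45 seeds found at 3 or more separate places, 5 had an H4WT region at every place and 17 had none at any, and 23 were mixed. The H4WT share over all miRNA loci was 32.4%. Some seeds come from the same genes, as GCAGCAU and GCUUCUU do from Mir103-1, Mir103-2 and Mir107, so the 45 are not separate families. No test of these counts was made. The miR-26 seed UCAAGUA, printed above, was marked by H4WT at 3 of 3 places. These genes lie in the related phosphatase genes Ctdspl, Ctdsp2 and Ctdsp1, with folds of 7.19 at Mir26a-1, 5.51 at Mir26a-2 and 5.73 at Mir26b, and Mir26a-1 also had H4K91R at 4.82. The miR-103 and miR-107 seed GCAGCAU lies in the related pantothenate kinase genes Pank3, Pank2 and Pank1 and had no region at any of the 3. The nearest H4WT region lay 12218 bp from Mir103-1, 25115 bp from Mir103-2 and 57429 bp from Mir107. The 2 seeds with H4K91R at each of 3 places were CACCCUG (Mir7018, Mir7023 and Mir7068) and GGGCUGG (Mir6940, Mir7648 and Mir762). These families were chosen after their values were seen.

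Base composition of the hairpin moved with the regions. Hairpin sequence was at hand for 919 of the 1136 loci (80.9%), which were ordered by GC content and divided into 4 equal groups. H4WT regions lay at 9.13% of the lowest group, then 19.1%, 39.1% and 73.8% of the highest. H4K91R regions lay at 6.96%, 10.4%, 23.9% and 47.2%. H4K91Q stayed between 0.435% and 2.18%, and the empty vector between 0.435% and 3.49%. From the lowest to the highest group H4WT went through 15.4%, 23.5%, 59.3% and 86.8% near gene ends and through 9.09%, 17.3%, 42.6% and 71.9% inside coding genes. Outside them H4WT lay at 9 of 107, 17 of 80, 11 of 55 and 18 of 33 loci (8.41% in the lowest and 54.5% in the highest group), with no rise between the middle groups. Median hairpin GC was 58.8% with an H4WT region and 48.8% without. Neighbouring loci were counted apart in these groups, and hairpins of the Sfmbt2 array were not set aside.

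Distance to a start site moved with them as well. Of the 1102 loci on chromosomes with annotated start sites, those under 1 kb from one had H4WT at 61.7%, against 41.4% of windows at that distance. At 1 to 5 kb the values were 44.5% and 11.7%, at 5 to 20 kb 37.9% and 7.13%, at 20 to 100 kb 19.6% and 3.92%, and from 100 kb on 9.62% and 1.38%. The median locus lay 13.7 kb from a start site and the median window 44.8 kb. The shares of loci thus lay above those of windows at each distance. GC content of the windows was not measured, so the part of base composition in the difference between loci and windows was not tested.

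**Figure D5:**
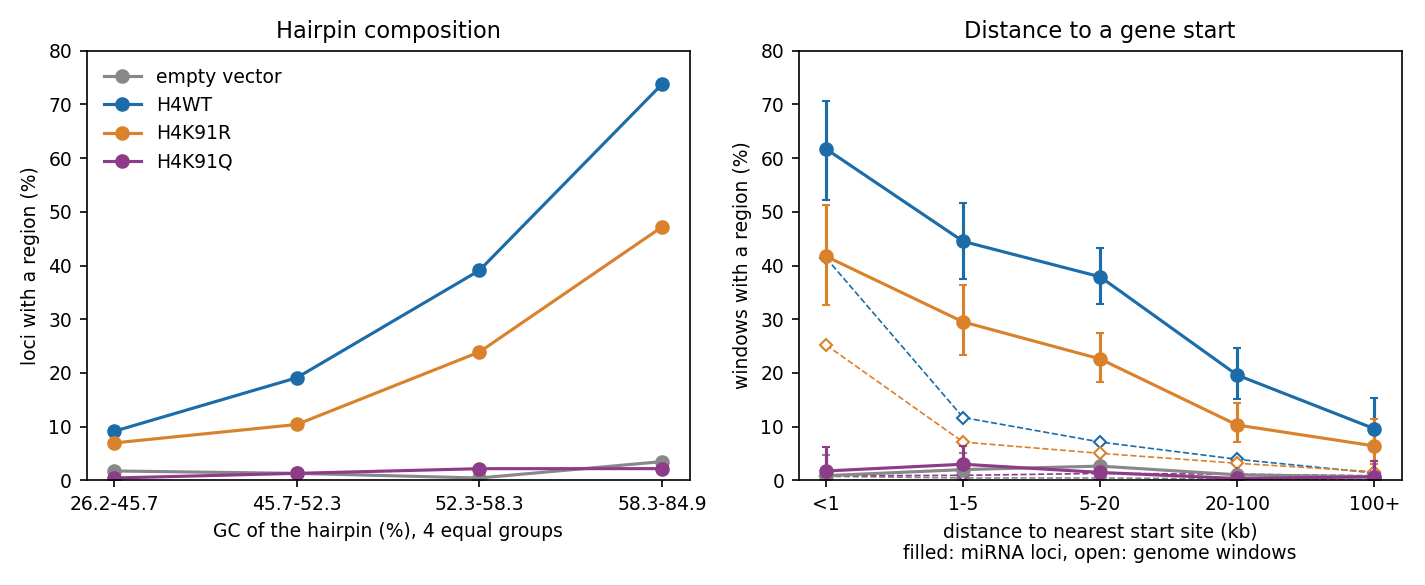
Left, percent of miRNA loci with a region in 4 equal groups of hairpin GC content (919 loci). Right, percent by distance to the nearest annotated start site (1102 loci, filled points with exact 95% intervals) beside genome windows at the same distance (open diamonds); H4WT and H4K91R fall with distance in both and rise with GC.

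The order in which miRNA genes were registered, read from their numbers, went the same way. Genes numbered under 1000, the earliest described, had H4WT at 22.3% of 461 loci and H4K91R at 13.0%. Those numbered 5000 or more had H4WT at 42.6% of 465 and H4K91R at 25.4%. Median hairpin GC was 48.3% in the first group and 54.7% in the second, and the median distance to a start site was 19.2 and 11.8 kb. The H4WT shares of these groups were 47.8% and 71.0% near gene ends, 18.1% and 43.1% inside coding genes, and 21.3% and 15.4% outside them, where the order turned. Of the early-numbered loci inside coding genes 71 belong to the Sfmbt2 array, and 26.1% of the other 161 had H4WT. By chromosome the H4WT share ran from 11.4% of 35 loci on chromosome 16 to 66.1% of 56 on chromosome 8.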

How the data were processed

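HA ChIP-seq peak lists of 4 libraries, 1 per group, were used; the other 32 samples of the series were not used here. Groups were taken from the sample titles. Peaks were called with MACS2 on mm10, per the submitters' processing notes; the aligner, the caller's version and its q limit are not stated there. Each deposited peak carries a score, the authors' fold (a ratio over input at the summit), a −log10 p and a −log10 q. The deposited score and −log10 p were not used, the authors' fold ranked regions within a list, and the deposited −log10 q filtered and shortened lists. Depth is unknown, since the lists hold no reads.

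Tagged regions that met a region of the empty-vector list (1 bp or more in common) were removed (2080 of H4WT, 1257 of H4K91R and 108 of H4K91Q). A locus within 1 kb of a coding gene end was classed there before any gene it lay inside. Genome windows were classed by their middle 80 bp. Intervals are exact (Clopper-Pearson) at 95%. Overlap code was tested on simulated regions: 100% of 200 planted at 895 loci were found, with 0 false calls. Alternatives were all regions kept, −log10 q of 5 or more, equal list length, 50% overlap, other flanks, merged clusters and another precedence of classes. Alternatives for the miRNA lists and distances, and the registry shares without the Sfmbt2 array, were added after seeing the data.

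Named loci were the 10 of highest fold per tagged list (overall and outside coding genes), up to 5 with a region per miRNA list, those with H4K91Q, and up to 10 held by H4WT alone or by both mutants without H4WT. The members and the lists were chosen with earlier results of these data known. Start sites and sequences came from RefSeq tables of GRCm38.p6, the same build as mm10. Python 3.11.15, pandas 2.3.3, numpy 2.4.6 and scipy 1.17.1 were used.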

Additional observations from a re-analysis of the deposited data

How the results depend on the processing

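No paired analysis was possible because each group has 1 library. Of 159 alternative values, 114 stayed within 1.5 times the value reported, among them every value with all deposited regions kept, with 50% of a region in the window, or with clusters counted once. With a −log10 q of 5 or more, the empty-vector share was 0.616% (0.892% inside coding genes, 0.313% outside), the H4K91R share 12.8% (27.1% near gene ends, 11.7% inside), H4K91Q near gene ends 0%, neural H4K91R loci 4 and the median distance to an H4K91R region 23.8 kb. With equal length, the H4WT share was 12.7% (29.2% near gene ends, 11.9% inside, 6.90% outside) and the H4K91R share 7.13% (15.3%, 6.69% and 4.39%). H4K91R was then at 33.3% of H4WT loci and H4WT at 59.3% of H4K91R loci. Neural loci numbered 8 and 3, those of the Dlk1 to Dio3 interval 2 and 9, and median distances were 31.3 and 47.1 kb, for H4WT and H4K91R. On the hairpin alone (flank of 0 bp), the shares of H4WT, H4K91R, H4K91Q and the empty vector were 17.8%, 7.92%, 0.792% and 0.704%. Neural H4K91R loci were then 2 and the Dlk1 to Dio3 counts 9, 8 and 3 for H4WT, H4K91R and H4K91Q. H4WT and H4K91R shares of 27.1% and 16.1% with 500 bp, and of 39.8% and 27.2% with 2 kb, stayed within that factor but left their counting intervals. With 500 bp, neural H4K91R loci were 6. With 2 kb, shares were 2.46% for the empty vector and 2.02% for H4K91Q, and 4 stem cell and cell-cycle loci had H4WT. With 5 kb, they were 49.8%, 38.2%, 3.08% and 5.72%, stem cell and cell-cycle loci had H4WT at 9 and H4K91R at 6, and 9 Dlk1 to Dio3 loci had H4K91Q. With the interior of a gene taking precedence over its ends, H4K91Q near gene ends was 0%. H4K91R was then at 30.0% near gene ends and 23.0% inside, against 44.4% and 18.7%, so the fall from ends to interior was smaller. H4WT was at 73.3% and 36.1%, against 66.0% and 31.4%. The H4K91R values and the H4WT value inside stayed within that factor but left their counting intervals. Fewer regions or other window widths are part of how these alternatives are built. Over all miRNA loci the shares kept the order H4WT, H4K91R, H4K91Q at each flank, at the q limit and at equal length. In the Dlk1 to Dio3 interval they did not: the counts were 2, 9 and 5 at equal length, 13, 14 and 4 at the q limit, 20, 23 and 7 with 2 kb and 20, 26 and 9 with 5 kb.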

Other observations

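Empty-vector regions at miRNA loci, which belong in no comparison of tagged histones, lay at 18 loci. They included Mir126a and Mir126b in Egfl7, whose miRNAs belong to endothelium, with 2 regions in the window, Mir6996 in Notch1, Mir7226 in Ptprf, Mir7687 in Gse1 and Mir202 outside coding genes. Their folds in the empty-vector list ran from 3.01 to 6.52, with a median of 5.32, beside 5.48 for that whole list. Of the noncoding host genes with a promoter in the sequence table, Mir100hg (6.58), Mir1a-1hg (7.60) and Mirc35hg (7.57) had an H4WT region over a promoter, as Mir9-3hg did. The listed promoters of Mir17hg, Mir155hg, Mir99ahg, Mir205hg, Mir217hg, Mir22hg, Mir670hg and Mirg had none, nor did another promoter of Mir100hg. An H4WT region lay 11 bp from the promoter of Mir22hg. The listed starts of Mir17hg and Mirg lie among the hairpins of their clusters, so starts upstream of those hairpins were not examined. No share over all promoters is given here, so these counts cannot be called high or low. Of genome windows under 1 kb from a start site, which are wider than these promoters, 41.4% held an H4WT region. None of these host promoters had an H4K91R region, the nearest being 172 bp away at Mir22hg.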
